A study of Mus musculus with 6 samples.

Results

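In liver, 10 marker genes of 2 kinds of blood-borne immune cell were followed: 6 genes of cytotoxic lymphocytes (Nkg7, Gzma, Gzmb, Prf1, Ncr1 and Ccl5) and 4 genes of neutrophils (S100a8, S100a9, Ngp and Camp). The 10 were picked by symbol from 47232 gene names that could be used in every mouse, and all 10 were found in every mouse. RNA-Seq was run once on unfixed, frozen liver of each of 6 house mice (Mus musculus). The 3 laboratory mice were inbred C57BL/6 males of 17 to 18 weeks, killed on arrival from the breeder. The 3 wild mice were outbred adults, trapped alive and then kept for 3 months in captivity. Wild mouse 1 was male, wild mice 2 and 3 were female, and wild mouse 3 was trapped at another place than the other two. The laboratory mice were also prepared, and their livers frozen, at an earlier date than the wild mice. Strain, captivity, age and date of preparation therefore all differed along with origin, and cannot be told apart from it here. Sex differed in part.

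Cytotoxic lymphocytes, the natural killer (NK) cells and CD8 T cells, kill infected or transformed cells by releasing granules. In the granules perforin opens the target cell's membrane and granzymes, which are serine proteases, enter through it. Liver holds many such cells in its sinusoids, along with the resident macrophages called Kupffer cells. Neutrophils are short-lived phagocytes made in bone marrow, which pass through the liver with the blood and carry S100A8 and S100A9 as a large part of their cytosolic protein. The pair bind each other as calprotectin, which withholds zinc and manganese from microbes. Other antimicrobial proteins, Ngp and Camp among them, fill neutrophil granules and are transcribed mainly in bone marrow precursors rather than in the mature cell.

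Expression is given on the scales deposited for each gene. FPKM is the number of fragments assigned to a gene, scaled by transcript length and library size, so levels can be set beside each other between genes. For zFPKM, the mode of a mouse's log2 FPKM values is subtracted and the remainder is divided by a spread fitted to the same values. Differences are laboratory minus wild in zFPKM, with a limma standard error (SE). A gene is called at a Benjamini-Hochberg adjusted p under 0.05 over all 18619 tested genes. The SE and p rest on a variance fitted to level over all genes, and hardly on a gene's own spread between mice. For the gene Lcn2 the SE was 0.166, while the zFPKM SDs were 0.734 in laboratory and 1.02 in wild mice. A very small p is therefore no measure of how closely the mice of a group agreed. A gene was tested where its zFPKM was above -3 in at least 3 mice, which Camp was not. The mode of log2 FPKM ran from 0.491 to 2.51 between mice. The median zFPKM of the tested genes was -0.747 in laboratory mouse 3 and -0.697 in wild mouse 1, against -0.280 to -0.168 in the other 4 mice. These 2 libraries had the highest modes, 2.12 and 2.51, and sat low as a whole on zFPKM. This need not hold in FPKM, where the median ratio of wild mouse 3 to wild mouse 1 over the tested genes was 1.09. The files hold no counts. The bounds deposited with FPKM for 5 of the mice imply the number of fragments behind a value, which was under 5 (or the value 0) in 29 of 50 member values. The livers showed their tissue, with 7721 to 19565 FPKM of the apolipoprotein gene Apoa1 across the mice. Leukocyte RNA was sparse beside it: Ptprc, which encodes the pan-leukocyte surface protein CD45, had 0.256 to 3.27 FPKM.

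Both S100a8 and S100a9 were higher in the laboratory mice, about 5-fold by mean FPKM, and no cytotoxic marker was called in either direction. In all, 2 of the 9 tested members were called, or 22.2%, beside 14.4% of all tested genes. Both were higher in laboratory mice, a direction in which 7.17% of all tested genes were called, with 7.28% called lower. The 6 cytotoxic markers were each highest, by FPKM, in the same animal, wild mouse 3, which had low S100a8 and S100a9. The limma test called 0 of the 6 cytotoxic markers, and 0 of the 6 had an unadjusted p under 0.05.

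**Figure D1:**
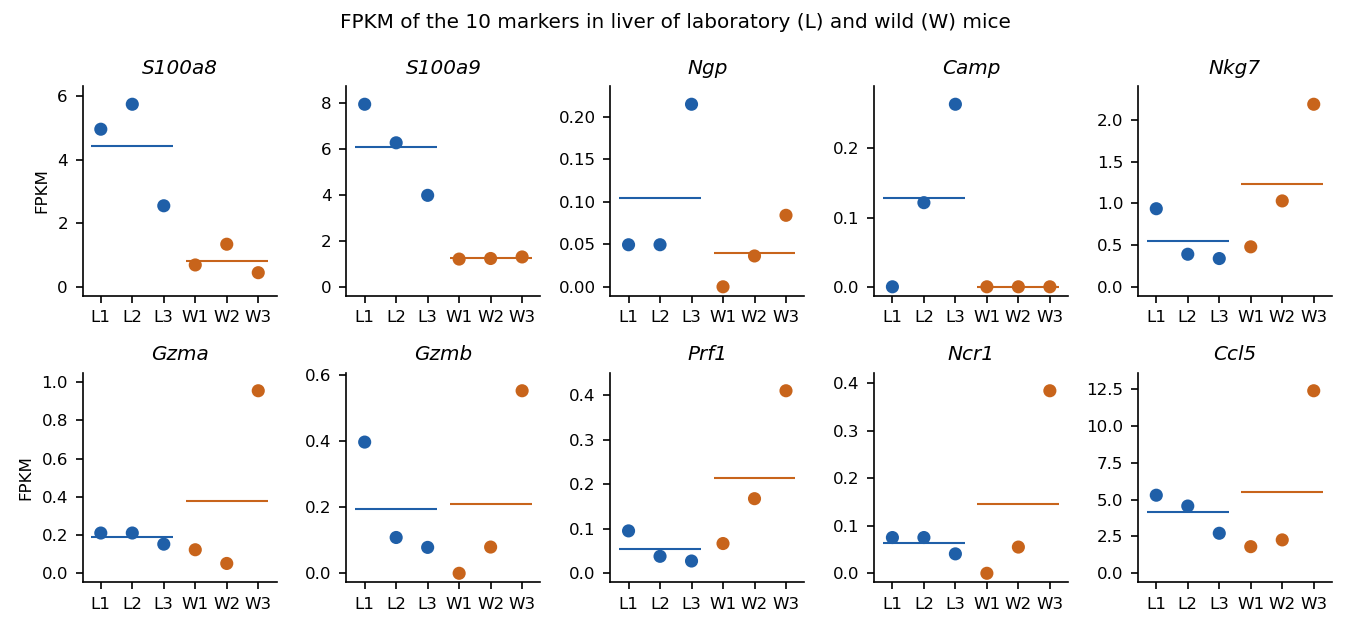
FPKM of the 10 markers in each laboratory mouse (L1 to L3, blue) and wild mouse (W1 to W3, orange), 1 panel a gene on its own linear axis, with group means as lines (n = 3 mice each). S100a8 and S100a9 do not overlap between the groups, and wild mouse 3 is the top point of all 6 cytotoxic markers.

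S100a8 (chr3:90669071-90670034, GRCm38) and S100a9 (chr3:90692630-90695721) are neighbours on chromosome 3, with 22595 bases between them, and lie on opposite strands. The 120 bases before their start sites, from RefSeq on GRCm38.p6, are shown with those of Ngp (chr9:110419808-110423012) and Camp (chr9:109847377-109849456), so that the pair that was called stands beside the pair near the limit of detection. Capitals mark matches on either strand to TATAAA (the TATA box), TTNNGNAA (bound by C/EBP factors) or GAGGAA (bound by PU.1), 2 families of factor that act in myeloid cells. The windows read 5′ to 3′ along the gene's own strand.
S100a8, chr3:90668951-90669070, plus strand: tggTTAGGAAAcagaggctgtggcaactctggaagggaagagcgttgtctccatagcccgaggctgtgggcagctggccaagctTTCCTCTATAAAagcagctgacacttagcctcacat
S100a9, chr3:90695722-90695841, minus strand: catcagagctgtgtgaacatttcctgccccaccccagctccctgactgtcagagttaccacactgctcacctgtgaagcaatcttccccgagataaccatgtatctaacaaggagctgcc
Ngp, chr9:110419688-110419807, plus strand: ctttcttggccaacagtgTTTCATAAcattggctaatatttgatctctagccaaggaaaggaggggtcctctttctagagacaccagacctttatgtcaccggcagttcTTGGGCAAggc
Camp, chr9:109849457-109849576, minus strand: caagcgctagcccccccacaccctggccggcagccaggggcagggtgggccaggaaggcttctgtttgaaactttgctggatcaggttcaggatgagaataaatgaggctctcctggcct

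The S100a8 window held 1 match to each motif. Its C/EBP match lay 117 to 110 bases before the start, while its PU.1 match, on the opposite strand 36 to 31 bases before the start, abutted the TATA box at 30 to 25 bases without overlapping it. The Ngp window held 2 C/EBP matches, 102 to 95 and 11 to 4 bases before the start. No match to these letters was found in the S100a9 or Camp windows, nor in those of the 5 cytotoxic markers with a sequence in the table (Nkg7, Gzma, Gzmb, Prf1 and Ncr1). Among 32851 promoter windows of the same length, 6.34% held TATAAA, 17.95% held TTNNGNAA and 11.6% held GAGGAA. A match is a description of letters and says nothing of binding in these livers.

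S100a8, the smaller subunit of calprotectin, had 4.96, 5.74 and 2.55 FPKM in laboratory mice 1 to 3 against 0.687, 1.34 and 0.444 FPKM in wild mice 1 to 3. Every laboratory mouse was above every wild mouse, as in 12.1% of all tested genes by FPKM, and laboratory mouse 3 was the lowest of its group. The mean was 4.42 ± 1.66 FPKM in laboratory and 0.823 ± 0.463 in wild mice (SD, n = 3 each), a ratio of 5.37. On zFPKM the difference was 1.09 (SE 0.287, limma adjusted p = 0.00219). On that scale the groups met: laboratory mouse 3 was at -0.306, just under wild mouse 2 at -0.285. The wild values rest on few fragments, 2.79, 6.26 and 1.97 as implied by the bounds, against 21.6 and 8.66 in laboratory mice 2 and 3.

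S100a9, the other subunit, was more abundant and better measured. It had 7.93, 6.25 and 3.97 FPKM in laboratory mice 1 to 3, against 1.20, 1.23 and 1.30 FPKM in the wild mice. The groups stood apart on both scales. The wild values lay close together, but their deposited bounds were wide, at 0.325 to 2.08, 0.426 to 2.03 and 0.406 to 2.19 FPKM. Their closeness is therefore no measure of how well the wild mice agreed. The mean was 6.05 ± 1.99 FPKM in laboratory and 1.24 ± 0.0478 in wild mice (SD, n = 3 each), a ratio of 4.87. The zFPKM difference was 1.0 (SE 0.255, limma adjusted p = 0.00152). Implied fragments were 38.1 and 22.2 in laboratory mice 2 and 3 and 7.505 to 9.37 in the wild mice. A two-sided exact permutation test on FPKM gave p = 0.1 for either gene, the smallest that 3 mice against 3 allow. In a whole-liver sample, fewer cells of a type and less RNA per cell cannot be told apart.

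The excess in laboratory mice kept its direction for both genes under all 17 other settings, but the call did not always survive the loss of a mouse. The limma adjusted p rose to 0.111 for S100a8 and 0.118 for S100a9 on leaving out laboratory mouse 1, and to 0.109 and 0.0632 on leaving out laboratory mouse 2. On leaving out wild mouse 1 S100a8 reached 0.0644 and S100a9 kept its call. Each gene also lost its call with no filter on low values (0.450 for both) and with a variance not allowed to follow the level (0.116 and 0.0927). Over all 17 settings the adjusted p ran from 6.32e-04 to 0.450 for S100a8 and from 4.01e-04 to 0.450 for S100a9. With sex as a covariate the difference is that between the laboratory mice, all male, and wild mouse 1, the only wild male. It was 1.42 for S100a8 and 1.29 for S100a9, and it rests on that 1 wild mouse. Wild mouse 1 had less of both genes than any laboratory mouse.

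Short transcripts as a class were higher in laboratory mice, and S100a8 and S100a9 have short ones, of 498 and 519 bases. Among 929 tested genes with a transcript of at most 600 bases the median zFPKM difference was 0.240, against -0.0643 in 7998 genes with transcripts over 3000 bases. S100a8 exceeded 89.5% and S100a9 87.2% of those 929 genes. After the trend of zFPKM with length had been removed in each mouse, the differences were 0.957 and 0.871 and both calls stood (limma adjusted p = 6.32e-04 and 4.01e-04). The ratio of S100a9 to S100a8 in FPKM was 1.599, 1.09 and 1.56 in the laboratory mice, against 1.75, 0.918 and 2.92 in the wild mice, so the groups overlapped in it.

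Ngp and Camp, the granule proteins, were near the limit of detection. Ngp, a cathelicidin-related protein of specific granules, had 0.0494, 0.0494 and 0.214 FPKM in laboratory mice against 0, 0.0362 and 0.0840 FPKM in wild mice. No value with bounds rested on more than 3.91 implied fragments and the groups overlapped. Its zFPKM difference of 0.612 (SE 0.469, limma adjusted p = 0.448) did not pass. Camp, which encodes the mouse cathelicidin CRAMP, was listed at 0 in laboratory mouse 1 and in all 3 wild mice, and had 0.122 and 0.264 FPKM in laboratory mice 2 and 3. These last 2 values rest on 0.973 and 1.97 implied fragments, so a difference in Camp was not detectable at this depth.

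**Figure D2:**
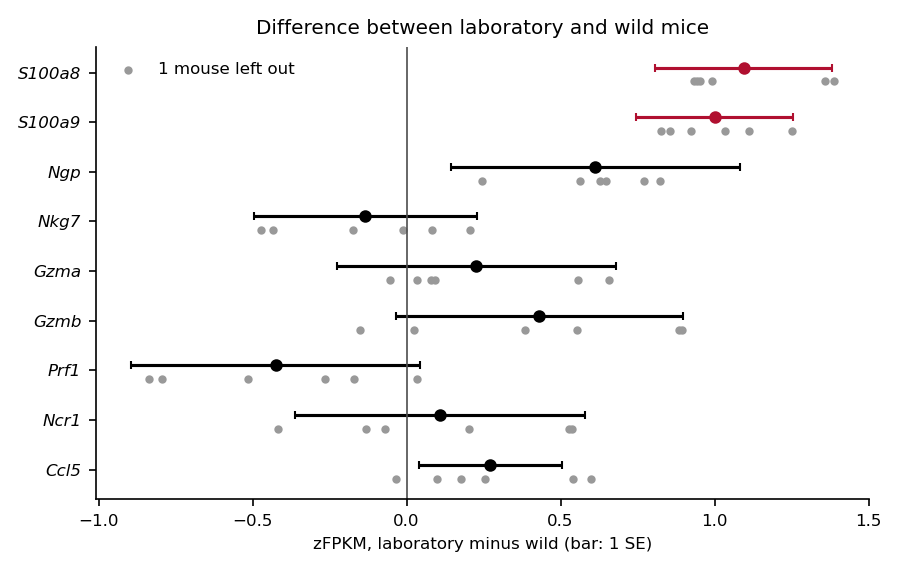
zFPKM difference, laboratory minus wild, of the 9 tested markers, with 1 SE from limma (n = 3 mice a group; red, adjusted p under 0.05) and, in grey, the difference with each mouse left out in turn. S100a8 and S100a9 stay between 0.825 and 1.39 whichever mouse is left out, and the cytotoxic markers lie on both sides of 0.

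Among the cytotoxic markers Ccl5 was by far the most abundant and the only one with more than 10 implied fragments in every mouse with bounds. Ccl5 (chr11:83525778-83530518) encodes RANTES, a chemokine released by T and NK cells that attracts further leukocytes. It had 5.30, 4.56 and 2.72 FPKM in laboratory mice 1 to 3 against 1.81, 2.27 and 12.4 FPKM in wild mice 1 to 3. Wild mouse 3 stood above all others while wild mice 1 and 2 stood below all laboratory mice. The means were 4.19 ± 1.33 and 5.49 ± 5.98 FPKM (SD, n = 3 each), and the zFPKM difference of 0.272 (SE 0.232, limma adjusted p = 0.510) did not pass.

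Nkg7 (chr7:43437138-43438246), a granule membrane protein needed for degranulation, had 0.937, 0.391 and 0.339 FPKM in laboratory mice against 0.480, 1.03 and 2.19 FPKM in wild mice. Its groups overlapped, since wild mouse 1 fell below laboratory mouse 1, and the zFPKM difference was -0.135 (SE 0.362, limma adjusted p = 0.867). The mean of Nkg7 was 0.556 ± 0.331 in laboratory and 1.23 ± 0.874 FPKM in wild mice (SD, n = 3 each).

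Of the granule proteases, Gzma (chr13:113093824-113100981), granzyme A, had 0.210, 0.211 and 0.152 FPKM in laboratory mice against 0.123, 0.0514 and 0.954 FPKM in wild mice. The other 5 mice lay between 0.0514 and 0.211 FPKM, and wild mouse 3 was 4.53 times the highest laboratory mouse. Gzmb (chr14:56258836-56262334), granzyme B, had 0.396, 0.108 and 0.0782 FPKM in laboratory mice against 0, 0.0793 and 0.551 FPKM in wild mice. It was high in laboratory mouse 1 and wild mouse 3 and low elsewhere. The zFPKM differences were 0.227 (SE 0.452) for Gzma and 0.431 (SE 0.466) for Gzmb, with limma adjusted p = 0.813 and 0.624.

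Prf1 (chr10:61297751-61304684), perforin, had 0.0953, 0.0382 and 0.0276 FPKM in laboratory mice against 0.0669, 0.168 and 0.410 FPKM in wild mice. Its mean FPKM in wild mice was 4.004 times that in laboratory mice, the largest ratio among the cytotoxic markers, yet the groups overlapped at wild mouse 1. The zFPKM difference of -0.425 (SE 0.470, limma adjusted p = 0.634) did not pass. Ncr1 (chr7:4337715-4345184), which encodes the NK receptor NKp46, had 0.0752, 0.0753 and 0.0409 FPKM in laboratory mice against 0, 0.0552 and 0.384 FPKM in wild mice. Only wild mouse 3 rested on more than 2 implied fragments among the mice with bounds, with 10.5, and the zFPKM difference was 0.108 (SE 0.470, limma adjusted p = 0.922).

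These 6 differences are imprecise rather than shown to be nil, since the SE, of 0.232 to 0.470, exceeded the difference for every one of them other than Ccl5. With a variance not allowed to follow the level, the SE of Ccl5 was 0.371, above its difference of 0.272 as well. Their signs were not stable either. Gzma and Ncr1 turned negative on log2(FPKM + 0.1) and on log2(FPKM + 1), and Gzmb turned on the latter alone. Nkg7 and Prf1 turned positive with sex as a covariate, where wild mouse 1 alone is compared with the laboratory mice. Leaving out wild mouse 1 turned Gzma, Gzmb, Ncr1 and Ccl5 negative. None of the 6 was called under any of the 17 settings.

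By FPKM wild mouse 3 was the highest mouse for 6 of 6 cytotoxic markers, while it was so for 28.6% of all tested genes. By zFPKM it was highest for 4 of 6, with laboratory mouse 1 ahead for Nkg7 and Gzmb, beside 11.2% of all tested genes. Against wild mouse 2, the other female, its FPKM was 2.13 times higher for Nkg7, 2.45 for Prf1, 5.47 for Ccl5, 6.96 for Gzmb and for Ncr1, and 18.6 for Gzma. The median ratio between these 2 mice over all tested genes was 1.07. Summed over the 6 markers, wild mouse 3 reached 16.9 FPKM against 2.48 and 3.65 in wild mice 1 and 2, and 3.35 to 7.01 in the laboratory mice. The neutrophil sum ran the other way, at 1.82 FPKM in wild mouse 3 and 7.00 to 12.9 in laboratory mice. Nearly all of the neutrophil sum was S100a8 and S100a9, since Ngp added at most 0.214 and Camp at most 0.264 FPKM in any mouse. The sum therefore restates the called pair. Set against the cytotoxic sum, the neutrophil sum was 1.84 to 2.26 times as large in laboratory mice and 0.763, 0.713 and 0.108 times as large in wild mice 1 to 3. Ccl5 carried most of the cytotoxic sum: without it that sum was 0.670, 1.38 and 4.49 FPKM in wild mice 1 to 3, beside neutrophil sums of 1.89, 2.60 and 1.82, so the order turned in wild mice 1 and 2.

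**Figure D3:**
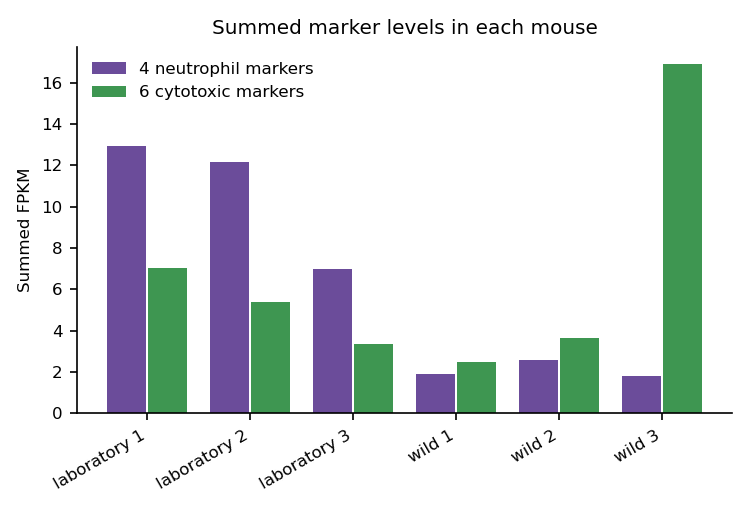
Summed FPKM of the 4 neutrophil markers (purple) and the 6 cytotoxic markers (green) in each of the 6 mice, 1 library a mouse. The neutrophil sum is the taller bar in every laboratory mouse and the cytotoxic sum in every wild mouse, but without Ccl5 the cytotoxic sum is the larger in wild mouse 3 alone. Nearly all of the neutrophil sum is S100a8 and S100a9.

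The amount of leukocyte RNA differed between these livers too. Ptprc had 0.792, 1.07 and 1.22 FPKM in laboratory mice against 0.256, 0.959 and 3.27 FPKM in wild mice, lowest in wild mouse 1 and highest in wild mouse 3. Per unit of Ptprc, Ccl5 was 6.69, 4.27 and 2.22 in the laboratory group, 7.06, 2.36 and 3.79 in the wild group. On that ratio wild mouse 3 was no longer at the top. Nkg7 per Ptprc ranged over 0.277 to 1.18 for laboratory and 0.670 to 1.87 for wild mice. S100a9 per Ptprc was 10.01, 5.85 and 3.25 in the laboratory group, 4.70, 1.28 and 0.396 in the wild group, so that wild mouse 1 moved into the laboratory range and wild mouse 3 had the lowest value of the 6.

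Of 133 companion genes in 10 lists of related cells and pathways, 105 were tested and 28 were called, 18 higher and 10 lower in laboratory mice. The lists were drawn up by function, with earlier results of these data known. The share called was 26.7%, beside 14.4% of all tested genes. By list it was 25% for cytotoxic granule genes, 18.75% for receptors, 10% for regulators and 9.09% for chemokines and their receptors. For neutrophil granule, neutrophil surface and recruitment genes it was 37.5%, 9.09% and 16.7%. Other leukocytes had 20%, and red cells and platelets, like hepatocytes, 75%. Over all tested genes the median zFPKM difference was 0.00500, with 1335 genes called higher and 1355 lower. On log2(FPKM + 0.1) those counts were 1524 and 7065, where the median of all genes was itself shifted by -0.47, so changes there are read relative to that shift. Relative to it, S100a8 was higher in laboratory mice by 2.80 and S100a9 by 2.61 on that log2 scale.

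**Figure D4:**
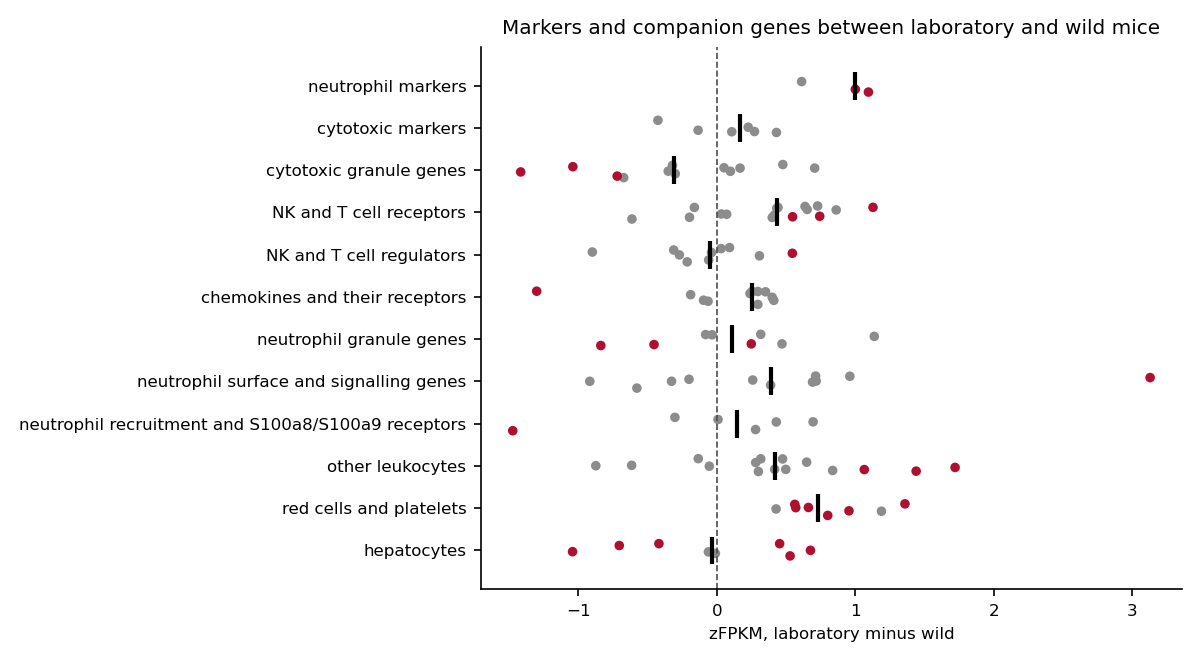
zFPKM difference, laboratory minus wild, of each tested marker and companion gene (points; red, limma adjusted p under 0.05) by list, with each list's median as a black bar and the median of all tested genes as a dashed line. The bars of neutrophil markers and of red cells and platelets lie farthest to the right, at 1.0 and 0.731.

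Of 12 tested other genes of the cytotoxic granule 3 were called, all lower in laboratory mice, with a list median of -0.310. With sex as a covariate, where wild mouse 1 alone is compared with the laboratory mice, the calls did not stand. The differences were then smaller in size, at -0.836 for Serpinb9, -0.293 for Ctsc and -0.491 for Cst7. Serpinb9, which protects cells from granzyme B, had 0.309 to 0.573 FPKM in laboratory and 4.50 to 5.18 in wild mice (difference -1.04, limma adjusted p = 0.00793). Ctsc, the protease that activates granzymes, had 3.95 to 6.83 FPKM in laboratory and 20.6 to 48.2 in wild mice (-0.719, 7.24e-04 by limma). Cst7, an inhibitor of Ctsc and related cathepsins, was listed at 0 in all 3 laboratory mice and had 0.0532 to 0.567 FPKM in wild mice. It entered the test only through the wild mice, with its laboratory values set to the floor, so its call is no measure of a difference. Every wild mouse was above every laboratory mouse for these genes, which held for 43.7% of all tested genes by FPKM. Both Serpinb9 and Ctsc are expressed by many other cells as well. Serpinb9 lost its call without wild mouse 2 or 3 (limma adjusted p = 0.111 and 0.0954), and Ctsc did without laboratory mouse 3, wild mouse 2 or wild mouse 3 (0.0872, 0.0694 and 0.0695). Srgn, the proteoglycan core of the granule, was at 2.01 to 7.22 FPKM with a difference of 0.0987 (SE 0.236, limma adjusted p = 0.850).

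Of 16 tested receptor genes of NK and T cells, 3 were called (18.75%, beside 14.4% of all tested genes). All 3 were higher in laboratory mice on zFPKM, and the list median was 0.437. They were Fcer1g (difference 0.743, limma adjusted p = 6.86e-04), Tyrobp (0.547, 0.0122) and Hcst (1.13, 0.0447), the adaptor chains through which NK receptors signal. Tyrobp and Fcer1g also serve macrophages and neutrophils. Tyrobp had 26.3, 21.4 and 17.03 FPKM in laboratory mice against 2.27, 16.5 and 46.7 in wild mice, so its call turned on the low value of wild mouse 1, without which the limma adjusted p was 0.965. It was also lost without laboratory mouse 1, 2 or 3 (0.235, 0.119 and 0.219). By mean FPKM Tyrobp was not higher in laboratory mice, at 21.6 against 21.8 in wild mice. On log2(FPKM + 0.1) and log2(FPKM + 1) the limma adjusted p was 0.529 and 0.580 for Tyrobp and 0.0827 and 0.0995 for Fcer1g. Both calls were also lost with a floor of -5 (0.309 and 0.0659) and with a variance not allowed to follow the level (0.526 and 0.253). Fcer1g lost its call without laboratory mouse 1 or wild mouse 1 (0.0783 and 0.185), and Hcst without any mouse other than wild mouse 2 (0.0739 to 0.428). The defining receptors themselves were not called: the T cell chains Cd3e, Cd3d and Cd3g had differences of -0.612, -0.162 and 0.400, and the NK receptor gene Klrk1 had 0.637 (limma adjusted p = 0.396, 0.874, 0.566 and 0.386).

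Among 10 tested regulators of these cells, Il15ra alone was called, the receptor chain that presents interleukin 15 to NK cells, with 8.80 to 23.8 FPKM in laboratory and 4.97 to 10.8 in wild mice (difference 0.546, limma adjusted p = 0.0255). It lost the call without any mouse other than wild mouse 2 (0.0584 to 0.172). Id2, the most abundant of the list, is needed for NK cell development but is not confined to lymphocytes, and had 49.1 to 79.5 FPKM (0.0921, limma adjusted p = 0.725). Of 11 tested chemokine and chemokine receptor genes only Xcl1, a chemokine of NK and CD8 T cells, was called (-1.30, limma adjusted p = 0.0334). It was listed at 0 in laboratory mice 2 and 3 and had 0.924 FPKM in laboratory mouse 1 and 0.270, 0.790 and 2.62 FPKM in wild mice. The call was lost without any mouse other than laboratory mouse 1 (0.114 to 0.465). Cxcl9 and Cxcl10, interferon-induced chemokines that attract T cells, were highest in wild mouse 3 at 9.96 and 5.16 FPKM, and neither was called (limma adjusted p = 0.871 and 0.926).

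Neutrophil granule genes other than the members gave no common direction: 3 of 8 tested were called, 1 higher and 2 lower in laboratory mice, and the list median was 0.107. Lyz2, lysozyme M, had 2.89 to 7.58 FPKM in laboratory and 12.0, 51.1 and 123 in wild mice (difference -0.837, limma adjusted p = 3.74e-05). Lcn2, neutrophil gelatinase-associated lipocalin, had 17.1, 13.7 and 3.10 FPKM in laboratory and 5.01, 74.7 and 124 in wild mice (-0.453, 0.0451 by limma). Hp, haptoglobin, had 1578 to 3823 FPKM (0.249, limma adjusted p = 0.0305). Macrophages also express Lyz2, and hepatocytes secrete Lcn2 and Hp, so these 3 do not mark neutrophils in liver. With sex as a covariate, where wild mouse 1 alone is compared with the laboratory mice, Lyz2 had a difference of -0.0410 and no call. Lyz2 lost its call after quantile normalization (limma adjusted p = 0.0637) and with a floor of -5 (0.0791). It also lost it without laboratory mouse 3 or wild mouse 3 (0.229 and 0.176), Lcn2 without laboratory mouse 3, wild mouse 2 or wild mouse 3 (0.971, 0.646 and 0.886), and Hp without laboratory mouse 1 or 2 or wild mouse 1 or 2 (0.168 to 0.234). Hp turned lower in laboratory mice on both log2 FPKM scales and after quantile normalization, and Lcn2 turned higher there with sex as a covariate. A further 5 genes of the list were too low to test, among them Ctsg, listed at 0 in every mouse.

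Neutrophil surface and signalling genes had a list median of 0.389, and 1 of 11 tested was called. That gene was Cebpe, the C/EBP factor that drives late granulocyte maturation, with 2.60, 2.74 and 3.52 FPKM in laboratory mice against a listed value of 0 in all 3 wild mice. It entered the test only through the laboratory mice, where it was high, and its wild values were all set to the floor, so its call is no measure of a difference and no p is given. Whether fragments were assigned to Cebpe correctly was not tested. Of the 11 tested genes 7 had a positive and 4 a negative difference. Cxcr2, a chemokine receptor of neutrophils, had 0.937 to 1.26 FPKM in laboratory and 0.350 to 0.497 in wild mice (0.691, limma adjusted p = 0.218), Csf3r had a difference of 0.718 (0.255 by limma), and Clec4d and Itgam had differences of -0.916 and -0.576 (limma adjusted p = 0.196 and 0.484), none of which passed. Ly6g, the usual surface marker of mouse neutrophils, was listed at 0 in every mouse. Itgb2 and Fpr1, the highest of the list by mean zFPKM and shared with other myeloid cells, had differences of -0.200 and 0.259 (limma adjusted p = 0.744 and 0.714).

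Of the recruitment genes and the receptors for calprotectin, 6 were tested and 1 was called. Cd36, a scavenger receptor that binds S100A8/S100A9 with fatty acids and is made by many cells, had 1.48 to 1.95 FPKM in laboratory and 25.0, 72.4 and 79.2 in wild mice (difference -1.47, limma adjusted p = 8.82e-13). Its call held with each mouse left out but was lost with no filter on low values (limma adjusted p = 0.450). Ly96, the co-receptor MD-2 of Tlr4, had 5.61 to 9.30 FPKM in laboratory and 4.31 to 4.81 in wild mice (0.430, limma adjusted p = 0.174). Tlr4 itself had a difference of 0.00912 (SE 0.458, limma adjusted p = 0.994).

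Most red cell genes were, like S100a8 and S100a9, higher in laboratory mice. Of 8 tested red cell and platelet genes 6 were called, all higher in laboratory mice and 1 of them tested only through those mice, with a list median of 0.731 and a summed level of 1341 to 5136 FPKM in laboratory against 724 to 1582 in wild mice. Alas2, the erythroid enzyme of haem synthesis, had 27.7 to 39.3 against 6.81 to 11.1 FPKM (difference 0.954, limma adjusted p = 4.99e-07). Hba-a2 and Hba-a1, the near-identical alpha globin genes between which fragments may be split, had differences of 0.801 and 0.662 (limma adjusted p = 2.45e-13 and 9.62e-10). In FPKM the groups overlapped for Hba-a1. Its call was lost on both log2 FPKM scales (limma adjusted p = 0.0671 and 0.0832) and with each mouse's median set to 0 (0.0576). Hba-a1 and Hba-a2 lost theirs with a variance not allowed to follow the level (0.146 and 0.0955). With no filter on low values Alas2, Hba-a2 and Hba-a1 were not called (0.263, 0.450 and 0.450). The platelet genes Pf4 and Ppbp were not used. Of 15 tested genes of other leukocytes 3 were called, all higher in laboratory mice, with a list median of 0.417, and the sum over the list was 40.2 to 48.7 FPKM in laboratory and 14.7, 44.6 and 91.7 in wild mice. Among them were Cd79b, a chain of the B cell receptor whose partner Cd79a did not pass (1.06 and 0.836, limma adjusted p = 0.0290 and 0.0615), and Siglech of plasmacytoid dendritic cells (1.44, 0.0201). Cd79b lost its call without any mouse other than wild mouse 2 or 3 (0.0544 to 0.235), and Siglech without laboratory mouse 1 or 2 or wild mouse 1 or 3 (0.0771 to 0.126). The Kupffer cell genes Clec4f and Vsig4 had differences of 0.417 and -0.0535 (limma adjusted p = 0.0696 and 0.912). The part of residual blood and of other leukocytes in the S100a8 and S100a9 result was not tested.

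Hepatocyte genes were called in both directions, 3 higher and 3 lower of 8 tested, with a list median of -0.0350. Fga, a fibrinogen chain, and Tat, tyrosine aminotransferase, were lower in laboratory mice (differences -1.04 and -0.704, limma adjusted p = 5.22e-21 and 7.09e-09). Apoa1 and Ttr, transthyretin, were higher there (0.676 and 0.529, limma adjusted p = 3.71e-16 and 9.77e-10). Quantile normalization alone turned both lower, without a call (limma adjusted p = 0.0996 and 0.0728). Both calls were also lost with each mouse's median set to 0 (0.666 and 0.708) and with no filter on low values (0.998 for both). The same held with a variance not allowed to follow the level (0.0976 and 0.156). Ttr lost its call on both log2 FPKM scales too (0.105 and 0.113). Tat lost its call with medians set to 0, no filter and that variance (0.0636, 0.336 and 0.0964), and Fga with no filter alone (0.236).

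The genes with the most similar profiles across the 6 mice were ranked by root mean square (RMS) distance in centred zFPKM over 18610 tested genes outside the markers. Nearest to the mean of the 6 cytotoxic markers came Cd8a, the CD8 co-receptor chain of cytotoxic T cells, at 0.0902, where the median gene was at 0.503. Cd8a had 0.0973, 0.0642 and 0.0696 FPKM in laboratory and 0.0569, 0.0594 and 0.314 FPKM in wild mice. Its partner chain Cd8b1 ran otherwise, highest in laboratory mouse 1 at 0.443 FPKM, with 0.0942 FPKM in wild mouse 3. Then followed Lilra5 (0.112), an activating receptor of myeloid cells, Tmc3 (0.114), Ear2 (0.122), an eosinophil-associated ribonuclease with 7.01 FPKM in wild mouse 3, and Tspan32 (0.131), a tetraspanin of blood cells. Nearest to the mean of the 3 tested neutrophil markers were Dennd2c (0.0286), Efcab8 (0.0621), Gm34249 (0.0630), Gm29948 (0.0675) and LOC115488303 (0.0712), where the median gene was at 0.523. The highest value among these 5 was 0.896 FPKM, and none was called (limma adjusted p = 0.149 to 0.236). The ranking did not remove the low position of laboratory mouse 3 and wild mouse 1 as whole libraries. With 6 mice such likeness is a description only.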

How the data were processed

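RNA-Seq was analysed for liver of 3 laboratory and 3 wild mice. The authors aligned 100-base single reads from stranded mRNA libraries to a masked genome with kalign, and the submitters' processing notes name GRCm38.p6 and Picard. The deposited FPKM were calculated by the authors with the Tuxedo pipeline, and the deposited zFPKM score was made by the authors from FPKM. Starts in the files count from 0, so 1 was added. No counts were used here, so edgeR, named in the study's methods, was not run.

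Of 47256 names listed once in every mouse, 24 with a failed or missing estimate were left out. Genes with zFPKM above -3 in at least 3 mice were tested, lower values being set to -3, with limma 3.58.1 in R 4.3.3 (eBayes with trend, Benjamini-Hochberg adjustment). A two-sided exact permutation test was added for single genes. The fit was tested on simulated data. Implied fragments are the square of 2 FPKM over the gap to the deposited upper bound, an approximation, and cover counting error only. Absolute depth is unknown. Transcript lengths are those of the longest GENCODE transcript of a name, found for 16495 of 18619 tested genes. Promoter sequences come from RefSeq, found for 9 of 10 markers.

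The members and lists were chosen with earlier results of these data known. Genes named are all 10 markers, up to 4 called genes with the largest difference and the 2 highest by mean zFPKM of each list, and the 5 nearest profiles to each kind of marker. Cd3e, Cd3d, Cd3g, Cd8b1, Klrk1, Cxcr2, Csf3r, Clec4d, Itgam, Cd79a, Ly6g, Ctsg and Tlr4 were named after their values were seen. Nothing in the labels pairs the mice. Alternatives were other scales, floors, filters and normalizations, no trend, sex as a covariate, and each mouse left out. With sex as a covariate the difference is that between the laboratory mice and wild mouse 1, the only wild male. Removal of the trend with transcript length, and leaving out the 2 libraries that sat low on zFPKM, were chosen after seeing the data. Some genes of the lists are not reported here by name. Chromatin assays were not analysed here.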

Additional observations from a re-analysis of the deposited data

How the results depend on the processing

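Against 2690 genes called, 8589 were called on log2(FPKM + 0.1), 8242 on log2(FPKM + 1), 5270 with every mouse's median shifted to 0, 7282 after quantile normalization, 23 with no filter on low values (47232 genes tested), 795 without a trend, 1374 with sex as a covariate, and 5676 without laboratory mouse 3 and wild mouse 1, an alternative chosen after seeing the data. With each mouse left out in turn the count was 1420 to 2556. Of the markers 2 were called, but limma called 0 with no filter and 0 without a trend (2 had an unadjusted p under 0.05 in each case), and 0 to 2 with a mouse left out, the lost calls being those without laboratory mouse 1, laboratory mouse 2 and wild mouse 1. The 28 companion calls became 16 with a floor of -5, 1 with no filter, 6 without a trend and 17 to 22 with a mouse left out. S100a8, S100a9 and Ngp kept their direction under all 17 alternatives.

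Among uncalled differences that turned sign, Gzma was -0.18 and Ncr1 -0.27 on log2(FPKM + 0.1), and Gzma -0.15, Gzmb -0.0017 and Ncr1 -0.093 on log2(FPKM + 1). Nkg7 was 0.543 and Prf1 0.399 with sex as a covariate. With 1 mouse left out the differences ran from -0.473 to 0.205 for Nkg7, -0.0548 to 0.657 for Gzma, -0.153 to 0.893 for Gzmb, -0.836 to 0.0353 for Prf1, -0.417 to 0.538 for Ncr1 and -0.0339 to 0.597 for Ccl5. The cause of these changes was not tested. Groups of 3 mice limit what can be seen for every marker. Values of a few fragments limit it further for every marker other than S100a9 and Ccl5, in S100a8 for the wild mice. No paired analysis was possible because the labels give no replicate numbers that tie a laboratory mouse to a wild mouse.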
